A study of Mus musculus with 9 samples.

Results

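The transcripts of 40 genes were followed, 26 that encode glucose and lactate carriers and the enzymes of glycolysis, and 14 that encode parts of the oxygen sensor or targets of the hypoxia-inducible factors. They were taken from a list of names that uses no measured value in its rule but was drawn up with earlier results of these data known, and all 40 are among the 20618 genes of the deposited tables. RNA had been sequenced from primary CD8+ T cells, the lymphocytes that kill infected and tumor cells, of wild-type mice. The cells were held for 24 h in 1 of 3 media, each with dialyzed serum, and live cells were then sorted. These were 2 mM glucose (called glucose below), 2 mM inosine (inosine), and 2 mM inosine combined with hypoxanthine (hypoxanthine), whose printed dose has lost its unit prefix and is not given here. Each medium had 3 libraries, all carry 1 batch label, and nothing in the labels says whether the 3 came from separate mice or cultures, so p-values measure only the spread between these libraries, which may be technical.

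Glycolysis splits glucose into pyruvate in the cytosol and yields ATP without oxygen, and lactate dehydrogenase turns pyruvate into lactate so that the pathway can go on. Activated CD8+ T cells are known for high glycolytic activity. Hypoxia-inducible factor 1 (HIF-1), a dimer of HIF-1α (Hif1a) and ARNT, raises the transcription of most glycolytic genes, and prolyl hydroxylases (Egln1, Egln3) mark HIF-1α for degradation when oxygen is present. Inosine is the nucleoside of hypoxanthine and ribose, and its ribose part can enter glycolysis through the pentose phosphate pathway.

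HIF binds the core letters ACGTG or GCGTG, the hypoxia response element. Since most members are known targets of this factor, 7 promoters are shown, each the 250 bases before the start site given by RefSeq in GRCm38.p6, the assembly of mm10. They are 4 members that were lower with hypoxanthine (Bnip3, Egln3, Pgk1, Tpi1), 1 that was higher (Ldhb) and 2 that were not called but differed widely between libraries of the same medium (Ankrd37, P4ha2), taken from members with a single start site in the table. They lie, in order, as Bnip3 at chr7:138909507-138909756 on the minus strand, Egln3 at chr12:54203875-54204124 on the minus strand, Pgk1 at chrX:106186850-106187099 on the plus strand, Tpi1 at chr6:124814159-124814408 on the minus strand, Ldhb at chr6:142507958-142508207 on the minus strand, Ankrd37 at chr8:45999851-46000100 on the minus strand and P4ha2 at chr11:54100674-54100923 on the plus strand. Capitals mark each match to ACGTG or GCGTG on either strand, written CACGT or CACGC where it is on the other strand, and CACGTG holds a match on both strands.
Bnip3: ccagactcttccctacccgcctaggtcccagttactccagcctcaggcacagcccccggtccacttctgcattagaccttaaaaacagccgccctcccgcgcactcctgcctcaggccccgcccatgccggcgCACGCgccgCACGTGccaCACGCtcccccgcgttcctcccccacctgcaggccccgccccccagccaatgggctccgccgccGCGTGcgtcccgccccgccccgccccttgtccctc
Egln3: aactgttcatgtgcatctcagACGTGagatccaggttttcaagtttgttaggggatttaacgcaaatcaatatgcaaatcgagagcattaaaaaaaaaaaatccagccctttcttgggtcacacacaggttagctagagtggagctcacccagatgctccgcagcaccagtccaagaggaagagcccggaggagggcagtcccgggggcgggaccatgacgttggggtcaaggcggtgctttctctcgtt
Pgk1: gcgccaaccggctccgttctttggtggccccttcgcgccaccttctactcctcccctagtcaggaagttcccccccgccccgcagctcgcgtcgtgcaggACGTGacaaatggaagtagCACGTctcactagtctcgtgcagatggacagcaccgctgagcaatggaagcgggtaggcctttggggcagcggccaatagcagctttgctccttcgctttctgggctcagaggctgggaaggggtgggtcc
Tpi1: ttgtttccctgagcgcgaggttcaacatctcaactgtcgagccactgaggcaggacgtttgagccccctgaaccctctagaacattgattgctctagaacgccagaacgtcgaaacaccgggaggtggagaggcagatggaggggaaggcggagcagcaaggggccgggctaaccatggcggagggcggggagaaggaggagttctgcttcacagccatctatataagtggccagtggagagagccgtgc
Ldhb: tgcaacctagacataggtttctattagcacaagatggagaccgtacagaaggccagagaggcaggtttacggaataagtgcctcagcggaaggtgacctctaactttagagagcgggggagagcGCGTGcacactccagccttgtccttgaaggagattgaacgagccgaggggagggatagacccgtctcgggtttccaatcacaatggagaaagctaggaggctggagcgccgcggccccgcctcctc
Ankrd37: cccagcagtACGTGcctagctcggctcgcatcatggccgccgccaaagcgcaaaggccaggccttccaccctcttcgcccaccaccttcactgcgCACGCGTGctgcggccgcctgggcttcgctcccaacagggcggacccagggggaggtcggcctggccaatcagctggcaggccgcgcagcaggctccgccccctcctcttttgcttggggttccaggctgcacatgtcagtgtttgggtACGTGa
P4ha2: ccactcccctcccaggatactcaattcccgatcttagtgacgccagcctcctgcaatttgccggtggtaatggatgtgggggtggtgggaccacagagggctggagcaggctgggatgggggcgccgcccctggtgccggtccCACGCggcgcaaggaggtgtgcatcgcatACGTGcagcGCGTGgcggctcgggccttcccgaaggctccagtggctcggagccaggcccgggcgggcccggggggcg

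The promoter of Bnip3 holds 5 matches, that of Ankrd37 holds 4, that of P4ha2 holds 3, that of Pgk1 holds 2, those of Egln3 and Ldhb hold 1 each, and that of Tpi1 holds 0. Of the 37 members with an entry in the RefSeq table (Slc2a3, Bnip3l and Ndrg1 have none), 33 or 89.2% have a match in at least 1 of their promoters. Counted per gene in the same way, the share was 63.3% over the 8066 genes expressed at a mean of 1 FPKM or more (the deposited unit, reads per length of gene and size of library). It was 38.6% over all 32851 promoters of the table, where each promoter is counted singly, so that this share is not like the others. Among the members that were lower with hypoxanthine than with inosine 11 of 12 have a match, among those higher 2 of 2, and among those not called 20 of 23. The longer motif CACGTG, which overlaps ACGTG, is in a promoter of 7 of the 37 (18.9%, beside 10.3% of the 8066 expressed genes (mean FPKM 1 or more) and 6.02% of all promoters, counted singly). A match describes the sequence only.

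Read totals recovered from the deposited values ranged from 29988842 to 48721757 per library, and members had from 32 reads (Eno2, the lowest library) to 234227 (Eno1, the highest). The CD8 T cell markers found in the table, 5 of the 6 listed (Cd3e, Cd3d, Cd3g, Cd8a, Cd8b1), summed to 543 to 721 FPKM in the 6 libraries without hypoxanthine and to 1056 to 1140 with it. Markers of CD4 T, B, NK, myeloid and erythroid cells and platelets summed to at most 0.577 FPKM per class and library, with Csf1r, Itgam and Adgre1 at 0 in 8 of the 9 libraries each. In bulk RNA, fewer cells of a kind and less RNA per cell cannot be told apart, and the part of the T cell markers in the results was not tested.

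With hypoxanthine, Aldoa, Tpi1, Gapdh, Pgk1, Pgam1, Eno1, Pkm and Ldha, which encode enzymes from aldolase to lactate dehydrogenase, were lower than with inosine alone. Of their minor forms Ldhb rose, and Aldoc, Eno2 and Eno3 were not called, though the difference of Aldoc was similar in size to that of Aldoa. Of the 40 members, 12 fell, 3 rose and 25 were not called, by limma on log2(FPKM + 1) at a Benjamini-Hochberg adjusted p under 0.05 over all 20618 genes. Over all genes 21.3% were called, 9.59% lower and 11.7% higher, against 30.0% and 7.50% of the members. Many of these genes are hardly expressed, while among the members only Pfkfb4 and Eno2 had means under 1 FPKM. Over the 9947 genes expressed at 1 FPKM or more, 16.0% were lower and 16.9% higher, so the excess of falls among members is smaller on that basis. The median difference was -0.20 on the log2 scale over the members and 0.0016 over all genes. Those that fell were Slc16a1, Aldoa, Tpi1, Gapdh, Pgk1, Pgam1, Eno1, Pkm, Ldha, Egln3, Bnip3 and Higd1a, and those that rose were Ldhb, Bnip3l and Kdm3a. Against glucose, a comparison that uses the same hypoxanthine libraries, the count was also 12 lower and 3 higher, and the median difference was -0.25. Among all genes 9.55% were lower than with glucose, 10.8% higher and 20.3% called in either direction. Among the 9947 expressed genes 15.9% were lower and 15.0% higher.

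**Figure D1:**
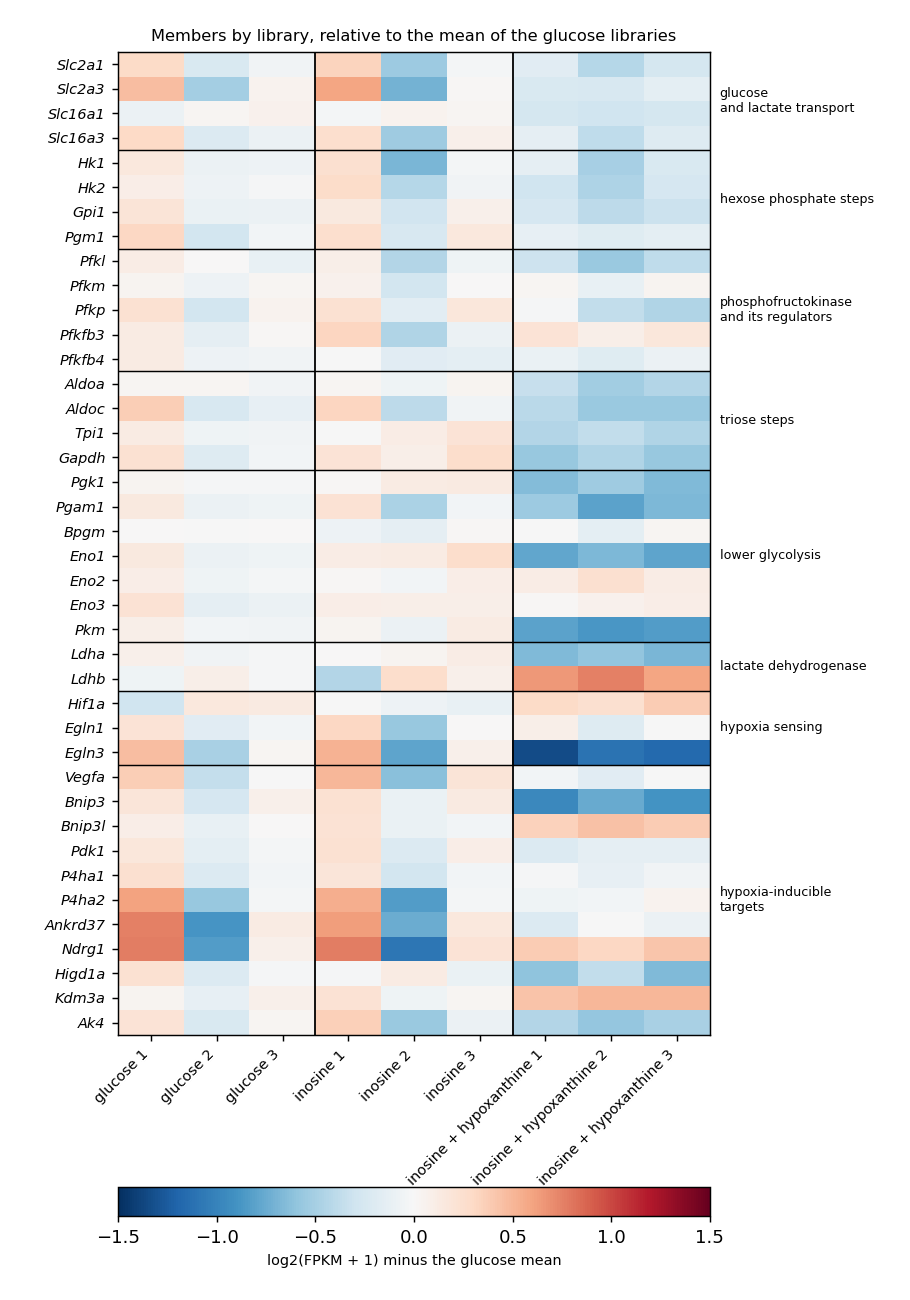
Each cell gives log2(FPKM + 1) of 1 member in 1 library minus the mean of the 3 glucose libraries, with members in rows by role and libraries in columns. The 3 hypoxanthine columns are blue from Aldoa to Pgk1 and at Eno1, Pkm, Ldha, Egln3 and Bnip3, while replicates 1 and 2 of glucose and of inosine have opposite colors at many members.

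**Figure D2:**
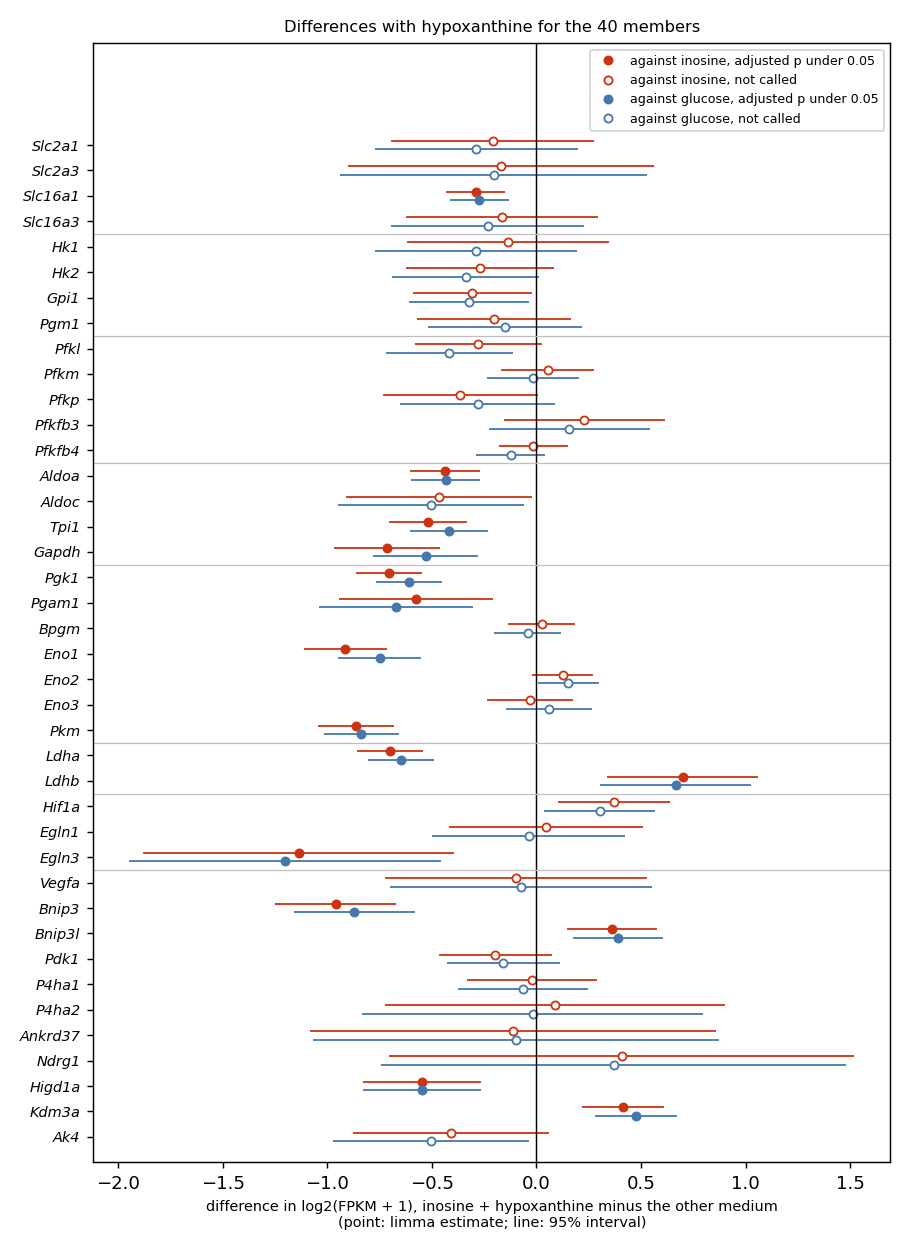
Points give the difference in log2(FPKM + 1) between inosine with hypoxanthine and inosine (red) or glucose (blue) for each member, lines give the 95% interval from limma, and filled points are called. Filled points lie left of 0 for 12 members and right of it for Ldhb, Bnip3l and Kdm3a in both comparisons.

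Glucose enters through Slc2a1 (GLUT1) and Slc2a3 (GLUT3), and lactate crosses the membrane through Slc16a1 (MCT1) and Slc16a3 (MCT4). Slc16a1 (chr3:104638664-104658462, the span of the gene in GRCm38.p6) was at 23.3, 25.4 and 26.1 FPKM in glucose replicates 1 to 3, at 24.4, 25.9 and 25.5 in inosine, and at 20.6, 20.1 and 20.7 with hypoxanthine. The hypoxanthine libraries all lay below the other 6. The difference was -0.29 ± 0.06 (SE; limma adjusted p = 0.011) against inosine and -0.27 ± 0.06 (adjusted p = 0.0153) against glucose, and the call against glucose was lost without glucose replicate 3 (adjusted p = 0.0604) or hypoxanthine replicate 3 (adjusted p = 0.0507).

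The other carriers were not called. Slc2a3 was at 116, 58.8 and 87.4 FPKM in glucose, 128, 51.0 and 85.2 in inosine, and 72.0, 70.9 and 76.0 with hypoxanthine, all 3 inside the range of the rest. Its difference from inosine was -0.17 with a 95% interval from -0.90 to 0.56. Slc2a1 ranged from 58.0 to 108 FPKM in the 6 libraries without hypoxanthine and from 63.3 to 75.6 with it (-0.21, interval -0.70 to 0.28). Slc16a3 ranged from 83.0 to 148 FPKM and from 92.6 to 110 (-0.17, interval -0.63 to 0.30). Slc2a3 made up 44.8 to 54.1% of the Slc2a1 and Slc2a3 sum over all 9 libraries, and Slc16a3 made up 76.2 to 86.4% of the Slc16a1 and Slc16a3 sum.

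Hexokinases (Hk1, Hk2) phosphorylate glucose, phosphoglucose isomerase (Gpi1) makes fructose 6-phosphate, and phosphoglucomutase (Pgm1) links the pathway to glycogen. None of these 4 was called by limma (1, Gpi1, had an unadjusted p under 0.05, and 0 were called by limma voom on reads), and all 4 differences from inosine were below 0, from -0.31 (Gpi1) to -0.14 (Hk1). Gpi1 was at 280, 229 and 231 FPKM in glucose, 273, 202 and 259 in inosine, and 206, 186 and 196 with hypoxanthine, so that inosine replicate 2 lay among the hypoxanthine libraries. Its adjusted p was 0.127 with all libraries and 0.0193 without inosine replicate 2, and Hk2 moved from an adjusted p of 0.281 to 0.0278 in the same way. Gpi1 was called under 2 of 17 other settings and Hk2 under 1. The 95% intervals of the hexose steps reach from -0.62 to 0.35. Hk2 made up 37.9 to 44.9% of the Hk1 and Hk2 sum, with no separation of the media.

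Phosphofructokinase (Pfkl, Pfkm, Pfkp) catalyzes the committed step, and Pfkfb3 and Pfkfb4 set the level of its activator fructose 2,6-bisphosphate. None of these 5 was called by limma (0 with an unadjusted p under 0.05 and 0 by voom against inosine). Pfkl was at 82.8, 77.0 and 71.2 FPKM in glucose, 81.7, 56.4 and 73.6 in inosine, and 61.9, 52.0 and 58.6 with hypoxanthine (-0.28, adjusted p = 0.191). Against glucose its difference was -0.42 ± 0.13 (adjusted p = 0.0592), its libraries did not overlap, and it was called under 8 of the 17 other settings tried. Pfkp ranged from 68.6 to 97.7 FPKM without hypoxanthine and from 60.4 to 81.9 with it (-0.36, adjusted p = 0.163). Its exons overlap those of Pitrm1 on the other strand, and since the strand of the libraries is not given, their reads cannot be told apart. The same holds for Gpi1 (741 shared exon bases with Gm26762), Ndrg1 (up to 419) and Ankrd37 (up to 349, with Lrp2bp or Ufsp2). It also holds for Pgm1 (398, with Itgb3bp), Pfkm (with Senp1) and Hif1a (with Gm15283). On their own strand, Pkm shares 767 bases with Gm49759, Pfkm up to 341 with Gm26513 and Hif1a up to 330 with Gm49321. Knowing the strand would not separate these. Overlaps of 25 to 157 bases are listed for Hk1, Slc2a1, Gapdh, Tpi1 and Aldoa. Pfkfb3 was the member of this step with the largest positive difference (0.23, interval -0.16 to 0.61), with 5.86 to 10.7 FPKM in the 6 libraries and 8.98 to 9.81 with hypoxanthine. Without inosine replicate 1, Pfkfb3 was called higher than in inosine. Pfkm lay between 4.74 and 6.27 FPKM throughout, and Pfkfb4 was under 1 FPKM in each of the 9 libraries, from 0.546 to 0.909.

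Of the 4 members at the triose steps, 3 fell (Aldoa, Tpi1, Gapdh), and of the 7 in lower glycolysis, 4 fell (Pgk1, Pgam1, Eno1, Pkm). Against inosine, 9.59% of all genes were lower, 16.0% of those at a mean of 1 FPKM or more, and 27.6% of those at 100 FPKM or more. Aldoa, which splits fructose 1,6-bisphosphate, was at 1132, 1129 and 1064 FPKM in glucose, 1135, 1058 and 1136 in inosine, and 874, 771 and 817 with hypoxanthine. It fell to 0.740 times the inosine mean (log2 -0.44 ± 0.07, adjusted p = 0.00359). Tpi1, the triose phosphate isomerase, was at 873, 770 and 776 FPKM in glucose, 802, 867 and 925 in inosine, and 595, 625 and 587 with hypoxanthine. For Tpi1 the ratio of means was 0.696 (-0.52 ± 0.08, adjusted p = 0.00261), and for both genes the hypoxanthine libraries lay below all others.

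Gapdh (chr6:125161852-125166467), which makes the first NADH of the pathway, was at 2778, 2072 and 2292 FPKM in glucose, 2722, 2503 and 2835 in inosine, and 1597, 1724 and 1590 with hypoxanthine. It was the most abundant member and is often used as a reference transcript. Its mean fell from 2687 ± 169 FPKM (SD, n = 3) in inosine to 1637 ± 75.1, which is 0.609 times (log2 -0.71 ± 0.11, limma adjusted p = 0.00253). Against glucose the ratio was 0.688 (-0.53 ± 0.11, adjusted p = 0.0104). The minor aldolase Aldoc had 3.99 to 7.40 FPKM in the 6 libraries and 3.44 to 3.93 with hypoxanthine, without overlap, but was not called (-0.47, adjusted p = 0.137). Aldoc was called lower than in inosine without inosine replicate 2, and lower than in glucose with a floor of 1 FPKM on a gene's mean.

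Pgk1 (chrX:106187100-106203699), phosphoglycerate kinase and the first ATP-yielding step, was at 1007, 967 and 969 FPKM in glucose, 991, 1070 and 1081 in inosine, and 625, 680 and 622 with hypoxanthine. Its promoter, shown above, holds both ACGTG and CACGT. Pgk1 fell to 0.613 times the inosine mean (log2 -0.70 ± 0.07, adjusted p = 0.00027) and the spread within a medium was small beside that difference. Pgam1, the phosphoglycerate mutase, was at 335, 285 and 290 FPKM in glucose, 351, 218 and 295 in inosine, and 207, 173 and 190 with hypoxanthine (-0.58 ± 0.16, adjusted p = 0.0348). The Pgam1 call against inosine was lost without any 1 of 7 libraries, namely glucose replicates 2 and 3, inosine replicates 1 and 3 and each hypoxanthine library, with adjusted p from 0.0509 to 0.108. It was also lost without the trend and robust settings (adjusted p = 0.0578) and with only those media in the fit (0.0871), 9 of 17 settings in all. Against glucose Pgam1 was at -0.67 ± 0.16 (adjusted p = 0.0192), lost without glucose replicate 1 or 3 or hypoxanthine replicate 2 or 3 (adjusted p from 0.0513 to 0.069).

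Eno1 (chr4:150236708-150248879), the main enolase, was at 2308, 1968 and 1991 FPKM in glucose, 2241, 2274 and 2504 in inosine, and 1209, 1304 and 1207 with hypoxanthine. It had the largest fall of the glycolysis enzymes against inosine, to 0.530 times the inosine mean (log2 -0.91 ± 0.09, limma adjusted p = 0.000236). Pkm (chr9:59656576-59679372), pyruvate kinase and the second ATP-yielding step, was at 1716, 1560 and 1556 FPKM in glucose, 1658, 1509 and 1759 in inosine, and 922, 878 and 901 with hypoxanthine. Pkm fell to 0.548 times the inosine mean (-0.86 ± 0.08, adjusted p = 0.00019) and to 0.559 times the glucose mean (-0.84 ± 0.08, adjusted p = 0.000235). For both genes every hypoxanthine library lay below every other library.

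The minor enolases did not follow Eno1. Eno3, the muscle form, was at 19.3, 14.9 and 15.5 FPKM in glucose, 17.7, 17.5 and 17.5 in inosine, and 16.7, 17.2 and 17.7 with hypoxanthine (-0.03, interval -0.24 to 0.18). Its share of the 3 enolases went from 0.693 to 0.827% in the 6 libraries to 1.30 to 1.44% with hypoxanthine, while Eno1 remained above 98% of the sum. Eno2, the neuronal form, was under 1 FPKM in all 9 libraries. Bpgm, the bisphosphoglycerate mutase, lay between 6.10 and 7.06 FPKM throughout (0.02, interval -0.14 to 0.18). Eno1b, a near copy of Eno1, had 2.02 to 2.64% of the Eno1 and Eno1b sum and also fell with hypoxanthine (-0.79 ± 0.10, adjusted p = 0.00101). Reads of Eno1 and Eno1b could have been split between them.

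Lactate dehydrogenase is a tetramer of A and B subunits, of which A is commonly linked to lactate output and B to lactate use. Ldha (chr7:46842274-46855627) was at 1871, 1704 and 1745 FPKM in glucose, 1775, 1829 and 1917 in inosine, and 1118, 1171 and 1105 with hypoxanthine. Ldhb (chr6:142490249-142507957) was at 2.32, 2.68 and 2.42 FPKM in glucose, 1.55, 3.16 and 2.67 in inosine, and 4.46, 4.86 and 4.21 with hypoxanthine, on 95 to 372 reads per library. The subunits moved in opposite directions, each with no overlap between hypoxanthine and the other libraries. Ldha fell to 0.615 times the inosine mean (log2 -0.70 ± 0.07, adjusted p = 0.000281), and Ldhb rose to 1.83 times (0.70 ± 0.16, adjusted p = 0.0143).

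The ratio of Ldha to Ldhb, both per length, was 578 to 1146 in the 6 libraries and 241 to 262 with hypoxanthine. Ldhb still made up at most 0.413% of the sum. The call of Ldhb against inosine was lost without hypoxanthine replicate 2 (adjusted p = 0.0515) or with only those media in the fit (0.0513), and against glucose without glucose replicate 1 or 3 or hypoxanthine replicate 1 or 2 (adjusted p from 0.0537 to 0.0654).

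Summed over the 26 glycolysis and carrier genes, the share of all FPKM was 2.63 to 3.098% in the 6 libraries without hypoxanthine and 1.73 to 1.85% with it. Aldoa, Tpi1, Gapdh, Pgk1, Eno1, Pkm and Ldha carried most of it, with 2.43 to 2.82% and 1.54 to 1.62%. Most falls of the glycolysis and carrier genes lay among their abundant members. The falls of the hypoxia genes did not, with means over the 9 libraries of 97.2 (Bnip3), 58.0 (Higd1a) and 33.6 FPKM (Egln3). Of the 10 glycolysis members with a mean of at least 100 FPKM, a level chosen after the values were seen, 8 fell and the median difference from inosine was -0.64, and the other two were Slc16a3 and Gpi1. Of the 606 genes of the whole table at that level 27.6% were lower and 12.05% higher, with a median of -0.09. Of the 16 less abundant glycolysis members 1 fell (Slc16a1) and 1 rose (Ldhb), and their median was -0.15, with 11 differences below 0 and 5 above.

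**Figure D3:**
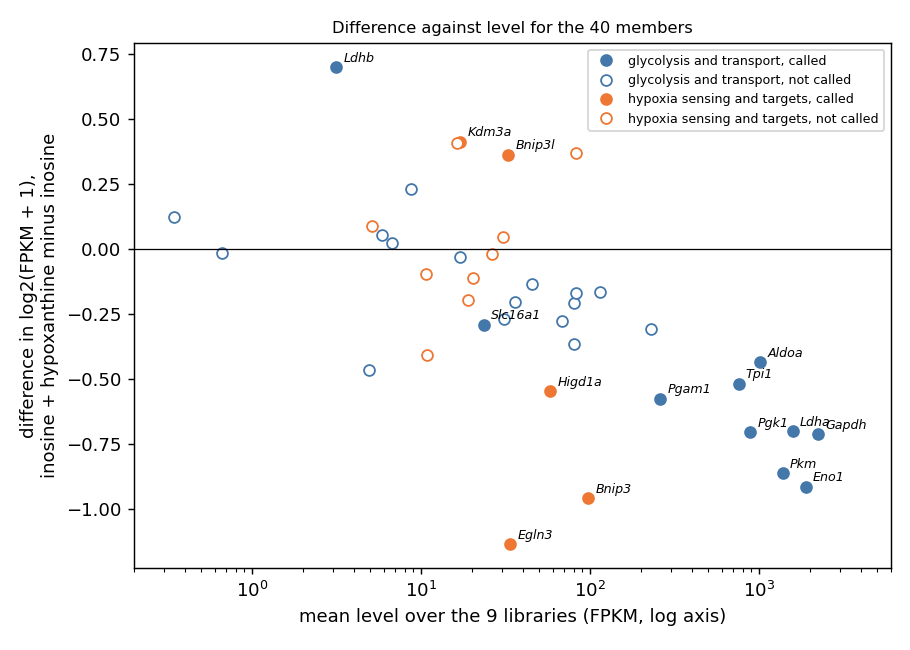
Each point is 1 member, with the mean FPKM of the 9 libraries on a log axis and the difference in log2(FPKM + 1) of inosine with hypoxanthine minus inosine. The 7 members with the highest means all lie between -0.91 and -0.44, while members under 100 FPKM lie on both sides of 0.

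In the oxygen sensor, the 3 genes differed from each other. Hif1a, whose protein level is controlled mainly by degradation, was at 63.0, 87.1 and 85.3 FPKM in glucose, 77.1, 73.6 and 71.6 in inosine, and 95.2, 92.0 and 101 with hypoxanthine. The hypoxanthine libraries were the highest, and the difference from inosine was 0.37 ± 0.12, just short of the threshold (limma adjusted p = 0.0542, 0.00581 without glucose replicate 1, and called under 5 of 17 other settings). Egln1, the main prolyl hydroxylase, ranged from 20.6 to 38.7 FPKM without hypoxanthine and from 27.1 to 33.0 with it (0.05, interval -0.42 to 0.51).

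Egln3 (chr12:54178981-54203874), a prolyl hydroxylase that is itself HIF-inducible, was at 56.4, 28.6 and 41.3 FPKM in glucose, 58.8, 23.0 and 42.7 in inosine, and 15.4, 18.4 and 17.6 with hypoxanthine. It fell to 0.412 times the inosine mean (log2 -1.14 ± 0.33, adjusted p = 0.0381) and to 0.406 times the glucose mean (-1.20 ± 0.33, adjusted p = 0.0317), the largest differences among the members. Its highest library was 1.97 times the lowest in glucose and 2.55 times the lowest in inosine, and all of these lay above the hypoxanthine libraries. The call against inosine was lost without glucose replicate 3, inosine replicate 1 or 3 or any hypoxanthine library (adjusted p from 0.0649 to 0.117), without the trend and robust settings (0.0721) or with only those media in the fit (0.0648). Against glucose it was lost without glucose replicate 1 or 3, inosine replicate 3 or any hypoxanthine library (adjusted p from 0.0516 to 0.107) or without the trend and robust settings (0.0614). Egln3 made up 51.0 to 61.1% of the Egln1 and Egln3 sum without hypoxanthine and 31.8 to 40.4% with it.

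Among the 11 HIF targets, 2 fell and 2 rose against inosine (18.2% each, beside 9.59% and 11.7% of all genes) and 7 were not called. Both shares lie near those of the 9947 genes expressed at 1 FPKM or more, 16.0% lower and 16.9% higher. Bnip3 and Bnip3l (also called Nix) are paired mitophagy receptors that sit on the outer mitochondrial membrane. Bnip3 (chr7:138890836-138909506) was at 126, 93.1 and 117 FPKM in glucose, 130, 104 and 122 in inosine, and 56.6, 65.7 and 59.3 with hypoxanthine. Bnip3l (chr14:66985238-67008877) was at 31.8, 27.2 and 29.7 FPKM in glucose, 34.4, 27.5 and 28.7 in inosine, and 37.6, 40.4 and 38.8 with hypoxanthine. Bnip3 fell to 0.509 times the inosine mean (log2 -0.96 ± 0.13, adjusted p = 0.00119) and Bnip3l rose to 1.29 times (0.36 ± 0.09, adjusted p = 0.0259), and hypoxanthine libraries did not overlap the others for either.

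Bnip3l thereby went from 19.0 to 22.6% of the pair to 38.1 to 39.95%. Bnip3 shares exon bases with the antisense gene Gm45507, whose reads cannot be told apart without strand. The call of Bnip3l against inosine was lost without inosine replicate 2 or 3 or any hypoxanthine library (adjusted p from 0.0577 to 0.0909) or with only those media in the fit (0.051), and against glucose without glucose replicate 2 or 3 or hypoxanthine replicate 2 or 3 (adjusted p from 0.0602 to 0.0689).

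**Figure D4:**
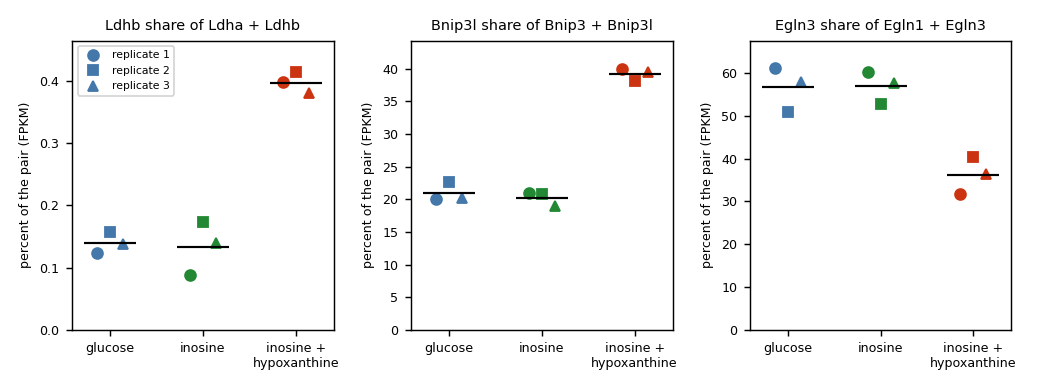
Each point is 1 library and gives the share of Ldhb, Bnip3l or Egln3 in the summed FPKM of its pair, with the mean of 3 libraries as a black line and an axis of its own per panel. With hypoxanthine the share of Ldhb was at most 0.413%, that of Bnip3l was 38.1 to 39.95% and that of Egln3 was 31.8 to 40.4%, and none overlapped the other media.

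Higd1a, a mitochondrial protein bound to the respiratory chain, was at 75.9, 55.7 and 63.8 FPKM in glucose, 64.1, 70.2 and 60.2 in inosine, and 42.2, 49.7 and 40.4 with hypoxanthine. It fell against inosine (log2 -0.55 ± 0.12, adjusted p = 0.014) and against glucose (-0.55 ± 0.12, adjusted p = 0.0147), and lost both calls without hypoxanthine replicate 1 or 3 (adjusted p from 0.0526 to 0.0635). Its exons overlap the antisense gene Gm47112, whose reads cannot be told apart here. Kdm3a, a histone H3 lysine demethylase, was at 15.2, 13.5 and 15.6 FPKM in glucose, 17.3, 14.1 and 15.1 in inosine, and 20.1, 21.3 and 21.3 with hypoxanthine. Kdm3a rose against inosine (0.41 ± 0.09, adjusted p = 0.0102) and against glucose (0.48 ± 0.09, adjusted p = 0.00562), with every hypoxanthine library above the rest.

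The remaining 7 targets were Vegfa, Pdk1, P4ha1, P4ha2, Ankrd37, Ndrg1 and Ak4, and their differences from inosine ran from -0.41 to 0.41 with adjusted p from 0.215 to 0.965. Pdk1, a pyruvate dehydrogenase kinase, lay between 16.6 and 22.7 FPKM in the 6 libraries and between 16.6 and 17.5 with hypoxanthine (-0.20, interval -0.47 to 0.07). Ak4, a mitochondrial adenylate kinase, was at 14.3, 10.3 and 12.5 FPKM in glucose, 16.1, 8.03 and 11.5 in inosine, and 8.81, 7.88 and 8.46 with hypoxanthine. Its libraries did not overlap those of glucose (-0.50, adjusted p = 0.128) but overlapped those of inosine (-0.41, adjusted p = 0.215). Ak4 was called lower than in glucose under 4 of 17 other settings, among them the fit of those media alone (adjusted p = 0.0293) and the fits without inosine replicate 1 (0.0447) or 2 (0.0375). It was called lower than in inosine under 1, without inosine replicate 2 (adjusted p = 0.0267). P4ha1, a collagen prolyl hydroxylase subunit, ranged from 21.9 to 31.8 FPKM and from 24.4 to 26.3 with hypoxanthine (-0.02, interval -0.33 to 0.29).

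For several HIF targets the libraries of 1 medium differed more than the media. Ndrg1, a stress-responsive gene, was at 24.1, 7.24 and 14.5 FPKM in glucose, 24.2, 5.93 and 16.0 in inosine, and 18.2, 17.3 and 18.6 with hypoxanthine. Ankrd37, an ankyrin repeat protein, was at 33.5, 9.99 and 21.3 FPKM in glucose, 30.5, 11.2 and 21.7 in inosine, and 16.7, 19.2 and 18.2 with hypoxanthine. P4ha2, the second prolyl hydroxylase subunit, was at 8.13, 3.07 and 4.91 FPKM in glucose, 7.81, 2.37 and 4.92 in inosine, and 4.78, 4.86 and 5.25 with hypoxanthine. In all 3 genes replicate 1 was the highest and replicate 2 the lowest of both glucose and inosine, and the hypoxanthine libraries lay close together between them.

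Vegfa, the vascular growth factor, had the same order, with 13.97, 7.98 and 10.5 FPKM in glucose, 15.3, 6.49 and 12.2 in inosine, and 10.2, 9.25 and 10.5 with hypoxanthine. This order was chosen for counting after the values were seen. It held in both glucose and inosine for 25 of the 40 members (62.5%), for 22 of the 35 other HIF targets expressed at 1 FPKM or more (62.9%), and for 7.03% of all 9947 genes at that level. The 15 members without it were Slc16a1, Pfkl, Aldoa, Tpi1, Gapdh, Pgk1, Bpgm, Eno1, Eno2, Pkm, Ldha, Ldhb, Hif1a, Higd1a and Kdm3a, among them 8 of the 9 glycolysis and carrier genes that fell. Replicate numbers are not known to link libraries of different media. Within hypoxanthine alone the order held for 13 of the 40 members (32.5%), beside 31.9% of all expressed genes. Within a medium, the highest library was over 2 times the lowest for 3 members in glucose (7.5%), 8 in inosine (20%) and 0 with hypoxanthine. The shares of the 9947 expressed genes were 1.70%, 2.21% and 0.33%, so 0 members with hypoxanthine is near the share of these genes.

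The members' median SD of log2(FPKM + 1) was 0.16 for the glucose libraries, 0.23 for the inosine libraries and 0.072 for the hypoxanthine libraries, against 0.094, 0.13 and 0.087 for the expressed genes. Whether the spread itself differs between media was not tested. Mitochondrially encoded transcripts made up 6.50% of FPKM in inosine replicate 2 and 5.84% in hypoxanthine replicate 2, against 4.03 to 4.82% in the other 7 libraries, and their part in this pattern was not tested. Without both of these libraries, 13 members fell and 1 rose against inosine, with Pfkl added to the falls (adjusted p = 0.042) and Bnip3l (adjusted p = 0.143) and Kdm3a (adjusted p = 0.0606) no longer called. All 12 falls held without them.

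**Figure D5:**
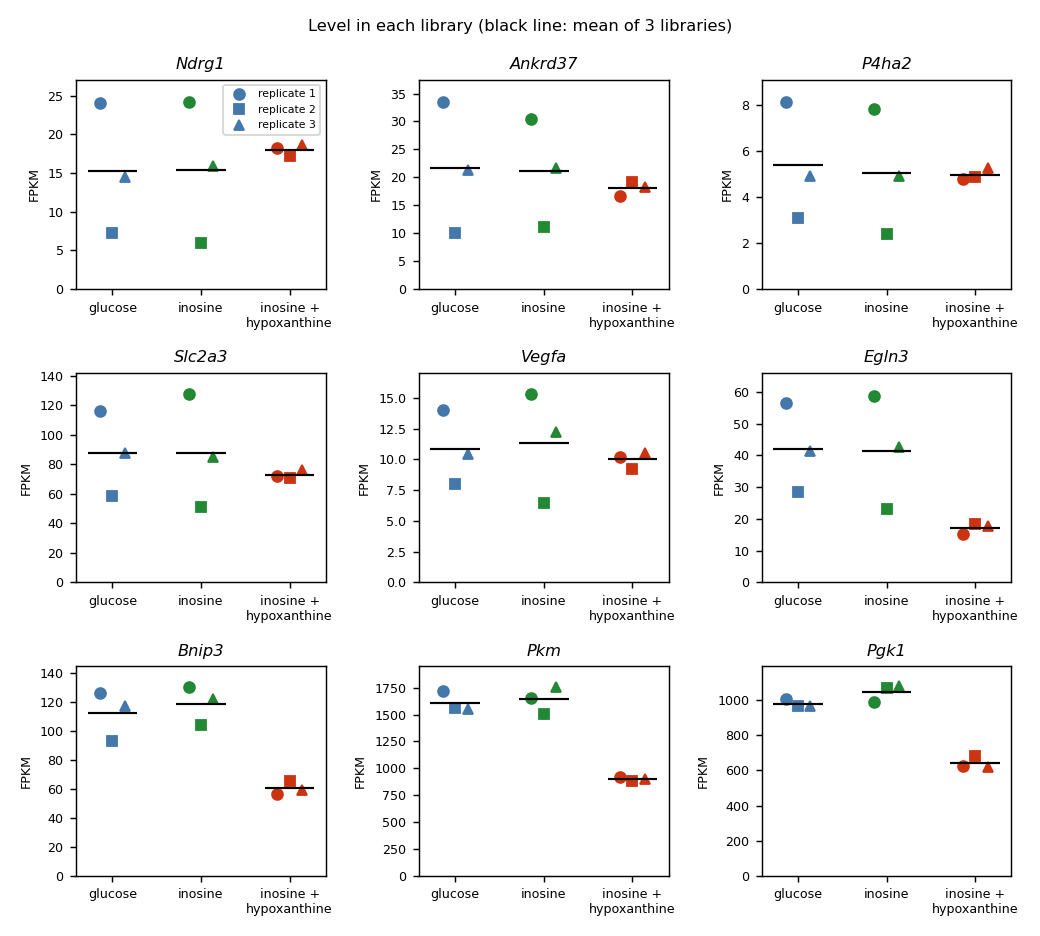
FPKM of 9 members in each library, with replicates as circles, squares and triangles, the mean of 3 libraries as a black line and an axis from 0 per panel. Ndrg1, Ankrd37, P4ha2, Slc2a3 and Vegfa spread widely within glucose and inosine around the hypoxanthine libraries, and Egln3 spreads as widely but lies above them. For Bnip3, Pkm and Pgk1 the hypoxanthine libraries lie below all others, while glucose and inosine overlap.

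Between inosine and glucose, no member was called and none had an unadjusted p under 0.05, beside 0.0097% of all genes called, 0.00485% lower and 0.00485% higher. No member had non-overlapping libraries either, against 5.05% of all genes. The members with the smallest unadjusted p were Eno1 (2340 ± 143 FPKM in inosine and 2089 ± 190 in glucose, SD, n = 3), Gapdh (2687 ± 169 and 2381 ± 361), Pfkfb4 (0.626 ± 0.10 and 0.754 ± 0.135) and Pgk1 (1048 ± 48.9 and 981 ± 22.8). All 4 had a limma adjusted p of 1, and limma voom on reads also called 0 members. Member differences ran from -0.15 to 0.18 with a median of -0.026. The 95% interval stayed within 1 log2 unit for 39 members and within 0.5 for 29, and Ndrg1 was the exception at 1 unit (-1.15 to 1.07).

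The authors' deposited table of hypoxanthine and inosine, at its own adjusted p under 0.05, has 16 members lower and 4 higher, with Ak4, Aldoc, Gpi1 and Pfkp added to the falls and Hif1a to the rises, beside 11.6% and 11.1% of its genes. In the authors' deposited table of hypoxanthine and glucose 20 members are lower and 4 higher, beside 13.8% and 12.7%. The further members listed as lower in the authors' deposited table are there Ak4, Aldoc, Gpi1, Hk1, Hk2, Pfkl, Pfkp and Slc2a1. The authors' deposited table of inosine and glucose calls 0 members, beside 0.00506% of its genes lower and 0.0% higher.

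Other genes of these pathways were counted in the same way. Of 34 other glycolysis genes in the table, 6 rose (17.6%) and 4 fell (11.8%) against inosine. The shares were 11.7% and 9.59% of all genes, and 16.9% and 16.0% of the 9947 genes expressed at 1 FPKM or more. Slc2a6 (GLUT6), a lysosomal hexose carrier, rose from 1.54 ± 0.507 to 10.2 ± 0.379 FPKM (SD, n = 3), 6.61 times (limma adjusted p = 5.27e-05). Slc2a8 (GLUT8) rose from 3.07 ± 0.874 to 5.68 ± 0.345 FPKM (adjusted p = 0.00724), and Pdk2, a pyruvate dehydrogenase kinase, from 0.104 ± 0.0182 to 0.656 ± 0.0851 FPKM (adjusted p = 9.09e-05). Bsg (basigin), the chaperone of the lactate carriers, fell from 273.8 ± 18.3 to 205.0 ± 4.89 FPKM (adjusted p = 0.00382), and Pgm2 fell from 9.51 ± 0.565 to 7.28 ± 0.373 (adjusted p = 0.00845). The named falls also include Eno1b, given above.

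Of 16 regulators of the HIF pathway, 3 rose (18.8%, beside 11.7% of all genes) and 2 fell (12.5%, beside 9.59%) against inosine. Beside the 9947 expressed genes, of which 16.9% rose and 16.0% fell, neither share stands out. Epas1, which encodes HIF-2α, fell from 6.21 ± 2.5 to 2.05 ± 0.23 FPKM (SD, n = 3; log2 -1.18 ± 0.24, limma adjusted p = 0.00873), and Arnt2 fell from 0.27 to 0.0441 FPKM (adjusted p = 0.00107), a low level throughout. Crebbp, a coactivator, rose from 2.93 to 3.91 FPKM (adjusted p = 0.011), Siah1a, a ubiquitin ligase, from 1.34 to 1.90 (adjusted p = 0.0241), and Arnt, the partner of HIF-1α, from 7.04 to 8.63 (adjusted p = 0.048). The Arnt call was lost under 11 of the other settings and the Siah1a call under 5.

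Of 47 other HIF targets, 12 fell (25.5%, beside 9.59% of all genes) and 4 rose (8.51%, beside 11.7%) against inosine. Their median difference was -0.07. The shares of the 9947 expressed genes were 16.0% lower and 16.9% higher. Car12, a carbonic anhydrase, fell from 7.62 ± 0.661 to 3.35 ± 0.213 FPKM (adjusted p = 7.38e-05). Anxa2, a membrane-binding annexin, fell from 296 ± 19.7 to 156 ± 6.19 FPKM (adjusted p = 8.46e-05), and Plin2, a lipid droplet coat protein, from 16.3 ± 1.21 to 8.50 ± 0.618 (adjusted p = 0.000178). Nt5e (CD73), which makes adenosine outside the cell, rose from 1.14 ± 0.265 to 2.89 ± 0.263 FPKM (adjusted p = 0.000468). Flt1 and Bhlhe41 were also called higher but remained under 0.1 FPKM in every mean. Of 5 glucose-sensing genes, Mlx fell from 24.5 ± 0.121 to 17.7 ± 0.598 FPKM (adjusted p = 0.00099) and Mlxip rose from 7.51 ± 0.884 to 10.4 ± 0.888 (adjusted p = 0.0107), and the proteins of these genes bind each other as a glucose-responsive transcription factor.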

How the data were processed

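FPKM per gene and library were deposited by the authors in 3 tables of 20618 genes. The group mean signal in these tables behaves as read counts divided by size factors, averaged by the authors over 3 libraries. The log2 fold changes and the p-values in the same tables are the authors' own, and their hypoxanthine tables give control minus hypoxanthine, turned round here. HISAT2, featureCounts, Subread 2.0.1, DESeq2 1.38.3 and mm10 are named per the submitters' processing notes, with no roles.

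Differences were tested with limma 3.58.1 (trend and robust settings) in R 4.3.3 on log2(FPKM + 1), all genes and 9 libraries in 1 fit, with no filter. Every adjusted p is limma's unless the authors' table is named. A log2 difference on this scale understates changes of genes near 1 FPKM. The test was checked on simulated data, with changes set in genes at a mean of at least 1 FPKM. Of 50 genes changed 1.25-fold it called 3 to 5 in each of the 3 comparisons, and of 50 changed 1.5-fold 28 to 33. Small differences that were not called may thus have been missed. In the comparisons with hypoxanthine far more genes were called (4382 against inosine, 4192 against glucose), which makes the adjustment less strict. The simulated counts may therefore be too low for those comparisons. Whole reads were solved from the authors' group means, within 0.0005 of a whole number, for 20335 genes (98.63%), all members among them, and were used for depth and for limma voom, an alternative added after the data were seen.

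The 40 members and all gene lists were chosen with earlier results of these data known. Named are members called with hypoxanthine, the 4 smallest p of inosine against glucose, members of the families compared, and up to 3 called genes per direction of each other list. Members named otherwise (Gpi1, Pgm1, Pfkfb3, Pfkfb4, Bpgm, Hif1a, Vegfa, Pdk1, Ankrd37, Ndrg1, Ak4) complete the account of each role. Gene positions are from RefSeq, GRCm38.p6.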

Additional observations from a re-analysis of the deposited data

How the results depend on the processing

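Calls of members were refitted under 17 other settings: a pseudocount of 0.1, a floor of 1 FPKM on a gene's mean, no trend or robust setting, median-of-ratios rescaling, a replicate block, only the media compared, each library left out, both number 2 libraries with inosine left out, and limma voom on recovered reads. Against inosine, Slc16a1, Aldoa, Tpi1, Gapdh, Pgk1, Eno1, Pkm, Ldha and Bnip3 were called lower under all 17. With 1 library left out, members lower ran from 9 to 17 against inosine and from 8 to 16 against glucose, members higher from 1 to 4 and from 1 to 3, and genes called from 2757 to 4487 and from 2677 to 4879, with the lowest counts of genes without hypoxanthine replicate 3. Members higher against inosine were 1 without both number 2 libraries. Between inosine and glucose 2 genes were called, 0 with the filter, without trend or robust settings, with those media alone and by voom, 1 without both number 2 libraries, and 1 to 7 with 1 library left out.

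Replicate numbers were not taken as pairs: the correlations of deviations ran from -0.27 to 0.64 over 9 pairs of libraries (over the members alone up to 0.77 and 0.81, for numbers 1 and 2 of glucose and inosine), and libraries correlated best with their own number in 8 of 18 cases. With the replicate block, 15 members were lower (Aldoc, Gpi1 and Pfkp added) and 3 higher against inosine, 16 (Ak4, Aldoc, Gpi1 and Pfkl added) and 3 against glucose, and 1 gene was called between inosine and glucose.

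Ndrg1 and Eno3, not called in any setting, changed sign. Against inosine, Ndrg1 ran from -0.12 (without inosine replicate 2) to 0.81 (without inosine replicate 1) with 1 library left out, and was at -0.0874 without both number 2 libraries. Against glucose it ran from -0.0496 (without glucose replicate 2) to 0.75 (without glucose replicate 1), and Eno3 from -0.0068 to 0.17 without the same libraries. Eno3 was at 0.11 by voom against inosine. The cause was not tested.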

Other observations

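For a few members, Pfkp among them, the ratio of recovered reads to FPKM, set against library depth, was not the same in each library. For Pfkp the difference between hypoxanthine and inosine was -0.36 with limma on log2(FPKM + 1) and -0.27 with limma voom on reads (adjusted p = 0.149). For Ldhb, whose ratio was even, it was 0.70 and 0.91 (voom adjusted p = 0.0072). Ldhb lay at 1.55 to 4.86 FPKM, where adding 1 before the log makes a difference smaller. Hif1a was called higher against inosine by voom (0.38, adjusted p = 0.0255).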
